A study of Mus musculus with 6 samples.

Results

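MHC and antigen processing genes were the 47 protein-coding genes in the count table whose GRCm38 symbol begins with H2- (34 genes) or that serve the same pathways by name (13 genes, B2m, Tap1, Tap2, Tapbp, Psmb8, Psmb9, Psmb10, Psme1, Psme2, Nlrc5, Ciita, Cd74 and Erap1). The table lists 53801 genes in all. RNA was measured in cultured fat cells of Ythdf1 knockout mice (3 libraries) and of wild-type mice (3 libraries). The product of Ythdf1 is a reader of the m6A mark on messenger RNA. Both groups were stromal vascular fraction cells from inguinal white fat, cultured and then driven toward adipocytes for 4 days. The labels give no strain, sex, age, knockout allele or MHC haplotype, and they do not say how many animals gave each library.

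MHC class I molecules, a heavy chain paired with beta-2 microglobulin, are made by nearly all cells with a nucleus and show peptides of the cell's own proteins to cytotoxic T cells. The proteasome cuts these peptides, the TAP transporter carries them into the endoplasmic reticulum, and tapasin helps to load them. Class II molecules are typical of macrophages, dendritic cells and B cells, show peptides from taken-up material to helper T cells, and need the invariant chain and the DM molecule for loading. NLRC5 is the transactivator of class I genes and CIITA that of class II genes, and interferon gamma raises both sets.

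Among the 47 genes, the class I and class II routes differed in opposite directions between the genotypes. Further genes of both routes, outside the 47, did not all follow these directions. Class I heavy chain genes summed to 3539.7, 3946 and 3891 CPM (CPM being counts relative to the scaled library total) in knockout replicates 1 to 3, against 1694, 2142 and 2178 CPM in wild-type replicates 1 to 3. Genes of class II chains, invariant chain, DM and DO summed to 32.3, 36.6 and 35.0 CPM in knockout libraries, against 74.5, 74.6 and 83.4 CPM in wild-type libraries. The values of the genotypes did not overlap in either sum. Together the 47 genes took 0.726% to 0.788% of all counts in knockout libraries and 0.388% to 0.481% in wild-type libraries. In bulk RNA, fewer cells of a type and less RNA per cell cannot be told apart.

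Of the 47 genes, 29 passed the filter on low counts. An adjusted p under 0.05 in edgeR's quasi-likelihood test was reached by 25 of these, 20 higher and 5 lower in knockout. Of all 14816 genes tested, 44.3% passed, 22.6% higher and 21.7% lower, and their median log2 fold change was 0.01, against 0.57 for the 29. The 3 knockout values lay wholly above the wild-type values for the same 20 genes and wholly below for the same 5, where 27.9% and 27.3% of all genes tested did so, 55.2% together. Of the 13147 protein-coding genes tested, 47.2% passed, 23.8% higher and 23.3% lower, and 58% did not overlap, 29% in each direction. H2-Q1, H2-Aa and H2-Eb1 passed the filter only with the libraries of the genotype where they were higher. The counts over the 29 are thus a description and not support. On the class I route, that is heavy chains, B2m, peptide supply and loading, 19 of 22 tested genes were higher and 0 lower. On the class II route 5 of 6 were lower and 0 higher.

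**Figure D1:**
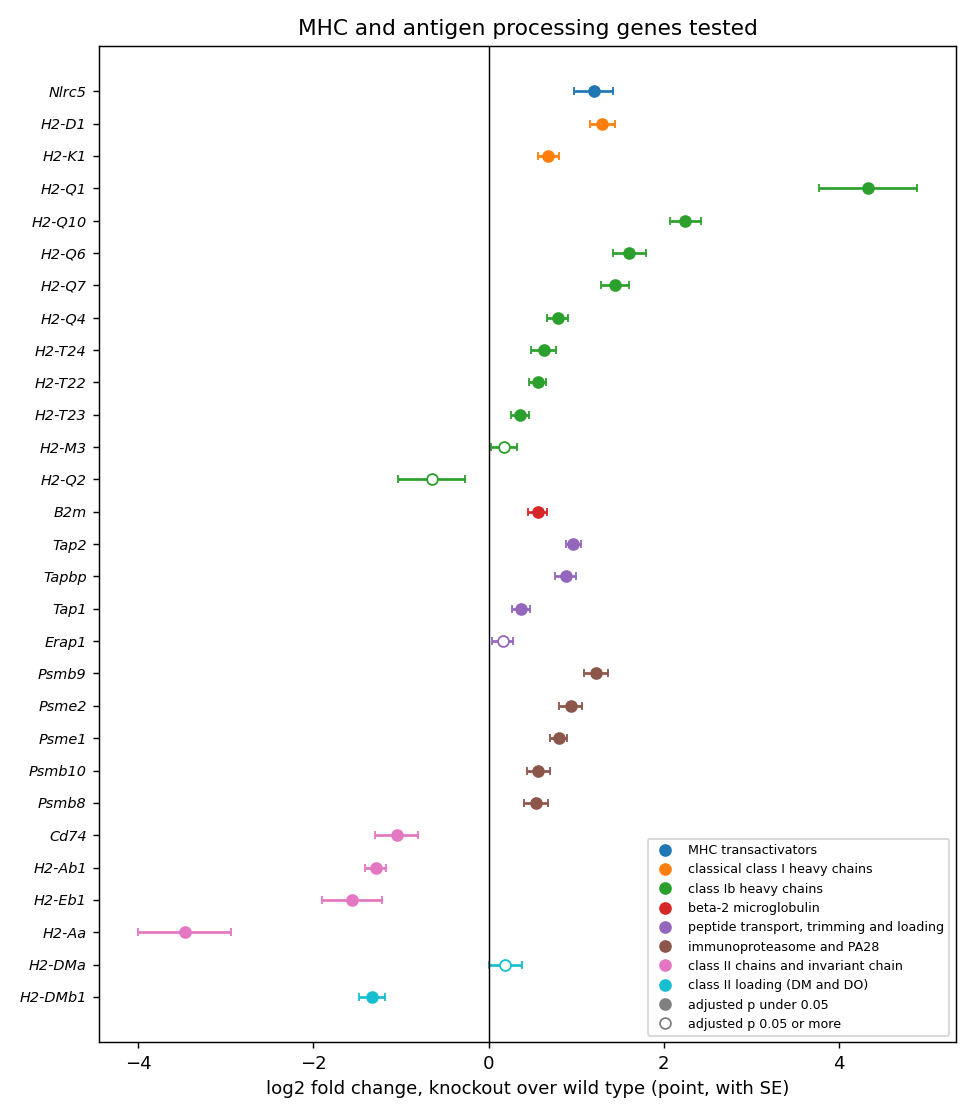
Log2 fold change, knockout over wild type, with SE for the 29 genes tested, grouped and coloured by role. Filled points passed an adjusted p of 0.05; class I route genes other than H2-Q2 lie to the right, up to 4.33 (H2-Q1), and the class II genes other than H2-DMa lie to the left down to -3.47 (H2-Aa).

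The libraries had 16619605 to 20089138 counts, so that 3 counts correspond to 0.146 to 0.185 CPM, a floor that covers counting error only. Ythdf1 itself (chromosome 2, 180904377 to 180920949 in GRCm38) had 45.1, 42.8 and 43.5 CPM in the knockout, against 63.0, 62.1 and 60.4 CPM in wild type (log2 fold change -0.50 ± 0.08 SE, edgeR adjusted p = 0.00038), so most of its signal remained. With the deleted exons unnamed in the labels, this value checks the genotypes only in part. Adipocyte markers were at 10595 to 14995 summed CPM in knockout libraries and 1919 to 2936 in wild-type libraries, with 6 of 6 genes higher, so the labelled cells were present in both groups. Macrophage and monocyte markers (20 genes) summed to 328, 331 and 883 CPM in knockout replicates 1 to 3, against 188, 127 and 106 CPM in wild type, with 14 of 19 tested genes higher, 0 lower and none of the list at 0 in all libraries. Knockout replicate 3 stood apart in this sum. Intestinal epithelium markers other than Krt19 (11 genes) summed to 0.935, 4.83 and 4.53 CPM in knockout, against 71.5, 72.9 and 51.7 CPM in wild type. The whole list of 12 summed to 45.9, 54.0 and 41.1 CPM in knockout, against 105, 119 and 95.6 CPM in wild type. Of its 11 tested genes, 10 were lower. For these marker counts, 22.6% of all genes tested were higher and 21.7% lower. The sum without Krt19 was made with its values known, so it is a description and overstates the difference of the whole list. Krt19 was the tested gene that was not lower. It was at 43.6 ± 6.41 against 41.1 ± 6.52 CPM (SD, n = 3 each, edgeR adjusted p = 0.65). Without knockout replicate 3 the calls among the 29 were again 20 higher and 5 lower. Knockout replicates 1 and 2 also had more macrophage signal than each wild-type library, and the part of adipocyte content and of other cells in the results below was not tested.

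The classical class I heavy chains H2-K1 and H2-D1, which present peptides to cytotoxic T cells, were the most abundant heavy chains. H2-D1 (chromosome 17, 35262730 to 35267499, plus strand, GRCm38) was at 1467, 1654 and 1499 CPM in knockout, against 493, 674 and 714 CPM in wild type. The lowest knockout library was above the highest wild-type library by more than the range within either genotype. Its log2 fold change was 1.30 ± 0.14 (SE, edgeR adjusted p = 2.2e-05), a fold of 2.46. H2-K1 (chromosome 17, 33996017 to 34000347, minus strand) was at 1102, 1259 and 1239 CPM in the knockout, against 640.5, 811 and 803 CPM in wild type, also without overlap (log2 fold change 0.68 ± 0.12 SE, edgeR adjusted p = 0.00073). The ratio of H2-D1 to H2-K1, in counts per kilobase of exon, was 1.52, 1.496 and 1.38 in the knockout, against 0.877, 0.947 and 1.01 in wild type. By total exon length, H2-D1 was the higher of the pair in every knockout library, while in wild type they were close to even. That ranking depends on the length used, here 2938 bases for H2-K1 and 2579 for H2-D1. Their longest coding transcripts are 1619 and 2102 bases. With those lengths the ratio would be smaller in every library, the pair close to even in knockout and H2-D1 below H2-K1 in wild type. The fold difference of the ratio between the genotypes does not depend on length. The exact 2-sided permutation p of this ratio was 0.1, the smallest that 3 against 3 libraries allow.

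B2m (chromosome 2, 122147686 to 122153083, plus strand), the light chain that class I heavy chains need to reach the surface, was at 2591, 2600.2 and 2566 CPM in the knockout, against 1510.0, 1837 and 1897 CPM in wild type. The knockout libraries lay close together, with an SD of 17.8 CPM around 2586, against an SD of 208 around 1748 CPM in wild type. Its log2 fold change was 0.56 ± 0.11 (SE, edgeR adjusted p = 0.0017). None of the stretches of 150 bases in B2m transcripts is shared with another annotated gene, unlike in several heavy chain genes.

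**Figure D2:**
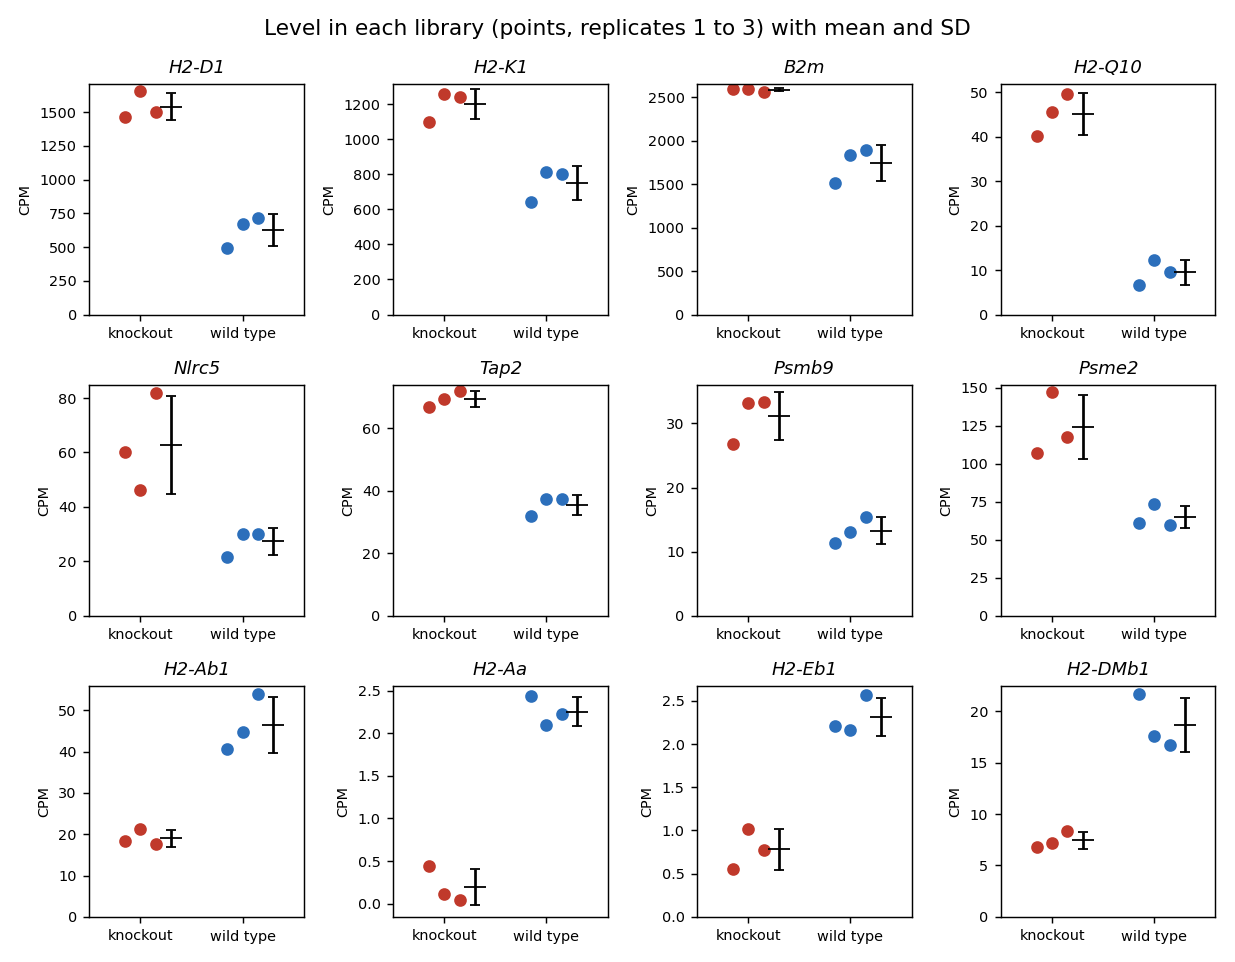
CPM in each library for 12 genes of the class I and class II routes, knockout left in red and wild type right in blue, with mean and SD (n = 3 each) in black; each axis includes 0. In every panel the genotypes do not overlap, with knockout above wild type in the first 8 panels and below in the last 4.

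Nonclassical (class Ib) heavy chains are encoded by the H2-Q, H2-T and H2-M clusters of chromosome 17. Of 22 such genes 10 were tested, and 8 of them were higher and 0 lower, against 22.6% and 21.7% of all genes tested. The H2-Q genes summed to 432, 438 and 529.8 CPM in the knockout, against 152, 212 and 228 CPM in wild type, and the H2-T genes to 521, 576 and 606 CPM against 389.5, 426 and 421 CPM. The ratio of the mean sums was 2.36 for H2-Q and 1.38 for H2-T.

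H2-Q6 and H2-Q7, of the genes that encode the Qa-2 antigen, were at 120.5 ± 18.6 and 124 ± 18.2 CPM in knockout, against 39.5 ± 10.1 and 45.9 ± 10.1 CPM in wild type (SD, n = 3 each). Their log2 fold changes were 1.61 ± 0.19 and 1.44 ± 0.16 (SE, edgeR adjusted p = 0.00022 and 8.9e-05). H2-Q4 was at 159.9, 169.8 and 189.6 CPM in the knockout, against 80.8, 106 and 113 CPM in wild type (log2 fold change 0.79). H2-Q10, which encodes a secreted class I molecule best known from liver, was at 40.1, 45.5 and 49.5 CPM in the knockout, against 6.73, 12.2 and 9.49 CPM in wild type, with the log2 fold change at 2.25 ± 0.18 (SE, edgeR adjusted p = 6.4e-06). H2-Q1 had 43, 32 and 43 counts in the knockout, against 3, 2 and 0 counts in wild type. The ratio of its pooled counts per total was 21.9, with a 95% counting interval from 9.13 to 68.8. Its fitted log2 fold change was 4.33, and 4.98 without wild-type replicate 1, and its call is a description too, as it passed the filter through knockout alone. H2-Q2 went the other way in its values, with 27, 18 and 42 counts in the knockout, against 23, 47 and 53 in wild type, but the genotypes overlapped and it did not pass (log2 fold change -0.65, edgeR adjusted p = 0.19).

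The H2-T genes moved less. H2-T23, which encodes Qa-1, a ligand of inhibitory receptors of natural killer cells, was at 251, 281 and 268 CPM in the knockout, against 186, 212 and 226 CPM in wild type (log2 fold change 0.36 ± 0.10 SE, edgeR adjusted p = 0.012). Without wild-type replicate 1 this call ended (adjusted p = 0.052). H2-T22, a ligand of some gamma-delta T cells, had 254, 280.4 and 321 CPM in the knockout, against 194, 203 and 183 CPM in wild type (log2 fold change 0.56). H2-T24 was at 16.0 ± 1.79 CPM in the knockout, against 10.4 ± 0.988 CPM in wild type (log2 fold change 0.63). H2-M3, which presents formylated bacterial peptides, overlapped between genotypes at 17.2, 18.8 and 15.4 against 16.5, 16.7 and 12.1 CPM (edgeR adjusted p = 0.35). The other 12 class Ib genes were too low to test. The 5 named H2-M10.1, H2-M10.3, H2-M10.4, H2-M10.5 and H2-M10.6 and also H2-M11 had no count in any library. H2-T3, H2-M1, H2-M2, H2-M5, H2-M9 and H2-M10.2 had 0 to 16 counts in a library. H2-M1 had 0 counts in each knockout library and 5, 5 and 1 in wild type.

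Heavy chain genes are alike in sequence, which limits how firmly reads can be given to one of them. The closest other transcript to that of H2-K1 was of H2-D1, 88.4% identical over 1515 bases, and the closest to that of H2-Q7 was of H2-Q6, 94.7% identical over 1031 bases. Exact stretches of 150 bases, the length of one read, were shared with another gene for 0% of H2-K1, 1.35% of H2-D1, 5.99% of H2-Q6, 3.43% of H2-Q10 and 22.3% of H2-T22. Most stretches were thus specific on the reference, but cells with other MHC alleles can match it differently, and the effect of alleles was not tested. Other H2 genes, annotated as pseudogenes and so not among the 47, number 11, of which 4 were tested. H2-K2 was at 24.3, 23.3 and 28.1 CPM in the knockout, against 3.34, 3.71 and 5.49 CPM in wild type (log2 fold change 2.59), and H2-Q5 was higher by 1.74 on the log2 scale. H2-T-ps was lower (-0.56), and H2-T10 did not pass (0.37, edgeR adjusted p = 0.062). With the 8 of the 11 that are class I pseudogenes or lie in the class I clusters added (all but H2-Pa, H2-Pb and H2-Ea-ps), the class I sum was 3611, 4016 and 3973 CPM in the knockout, against 1733, 2192 and 2223 CPM in wild type, a ratio of means of 1.89, the same as without them.

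Of the 9 genes among the 47 that supply, carry, trim and load peptides for class I, 8 were higher and Erap1 did not pass. Among all genes tested, 22.6% were higher. All 5 genes of the immunoproteasome and of its activator PA28 passed. Psmb8, Psmb9 and Psmb10 encode the catalytic subunits that replace those of the standard proteasome. Psmb9 was at 26.8, 33.2 and 33.3 CPM in the knockout, against 11.3, 13.0 and 15.4 CPM in wild type (log2 fold change 1.23 ± 0.14 SE, edgeR adjusted p = 3.1e-05). Psmb8 was at 41.2, 57.3 and 56.0 CPM against 31.5, 40.8 and 33.8 CPM, close at the border between genotypes (log2 fold change 0.54), and did not pass in limma-voom (adjusted p = 0.07). Psmb10 was at 26.8 ± 3.22 CPM in the knockout, against 18.1 ± 2.35 CPM in wild type (log2 fold change 0.57). The PA28 subunit gene Psme1 was at 93.4, 112 and 109 CPM in the knockout, against 53.8, 65.5 and 61.7 CPM in wild type (log2 fold change 0.80, edgeR adjusted p = 7.9e-05). Its partner Psme2 was at 107, 147 and 117 CPM in the knockout, against 61.2, 73.2 and 60.01 CPM in wild type (0.94, edgeR adjusted p = 0.00014). Both genes separated the genotypes. Psme2 is 99.4% identical over 794 bases to Psme2b, which was at 7.09 ± 0.893 CPM in the knockout, against 4.60 ± 1.45 CPM in wild type, so part of its reads may be counted there.

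Of the TAP transporter's subunit genes, Tap2 was at 66.8, 69.4 and 71.9 CPM in the knockout, against 31.8, 37.4 and 37.3 CPM in wild type (log2 fold change 0.97 ± 0.09 SE, edgeR adjusted p = 9.3e-06). Tap1 differed less, at 113, 124 and 135 CPM in the knockout, against 83.5, 102 and 102 CPM in wild type (log2 fold change 0.37 ± 0.10 SE, edgeR adjusted p = 0.012), and without wild-type replicate 1 its call ended (adjusted p = 0.055). The ratio of Tap2 to Tap1 per kilobase was 0.854, 0.810 and 0.768 in the knockout, against 0.551, 0.531 and 0.529 in wild type, without overlap (exact 2-sided permutation p = 0.1, the smallest possible). Tapbp, which encodes tapasin, was at 469.7, 457 and 527 CPM in the knockout, against 222, 269 and 299 CPM in wild type (log2 fold change 0.88 ± 0.12 SE, edgeR adjusted p = 0.00013). Erap1, which encodes a peptidase of the endoplasmic reticulum that trims peptides, overlapped at 46.5, 46.2 and 61.1 CPM in the knockout, against 44.2, 48.8 and 44.9 CPM in wild type (log2 fold change 0.16, edgeR adjusted p = 0.29). Its highest value was in knockout replicate 3, and without that library its log2 fold change was 0.01. Erap1 and Cast overlap on opposite strands, as Tap1 and Psmb9 do over 212 bases, and since the strand setting of the counting is not known, reads there are uncertain.

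Nlrc5 (chromosome 8, 94434356 to 94527272, plus strand), the transactivator gene of class I, was at 60.3, 46.3 and 81.9 CPM in the knockout, against 21.7, 30.2 and 30.01 CPM in wild type. All knockout values lay above wild type, but they spread widely, with replicate 3 highest. Its log2 fold change was 1.2 ± 0.22 (SE, edgeR adjusted p = 0.0024) and 0.97 without knockout replicate 3. Ciita, the transactivator gene of class II, was too low to test, with 10, 2 and 8 counts in the knockout, against 7, 3 and 8 in wild type. The ratio of its pooled counts per total was 1.03, with a 95% counting interval from 0.518 to 2.07.

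Per kilobase of exon, B2m was the highest of the 47 genes, at 3007 CPM per kilobase in the knockout, against 2033 in wild type. H2-D1 (597) and H2-K1 (408) followed in knockout, and H2-K1 (256) and H2-D1 (243) in wild type. These levels rest on total exon length, as does the order of H2-D1 and H2-K1. Tapbp came next, at 134 in the knockout, against 72.7 in wild type, where it did not stand apart from H2-T23 at 72.0. The class II gene H2-Ab1 was at 7.41 CPM per kilobase in knockout, where Tap1 was at 22.7, and at 18.1 in wild type, close to Tap1 at 17.5.

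Of 10 class II route genes 6 were tested, of which 5 were lower in knockout and H2-DMa did not pass. Among all genes tested, 21.7% were lower. H2-DMb2, too low for the filter, had more counts in knockout. H2-Ab1 (chromosome 17, 34257689 to 34269419, plus strand), the beta chain of I-A, was at 18.3, 21.3 and 17.5 CPM in the knockout, against 40.7, 44.7 and 54.1 CPM in wild type (log2 fold change -1.29 ± 0.12 SE, edgeR adjusted p = 1.0e-05). Its partner H2-Aa (chromosome 17, 34282744 to 34287823, minus strand), the alpha chain, had 8, 2 and 1 counts in the knockout, against 43, 34 and 39 counts in wild type. Pooled over libraries, its ratio of knockout to wild type was 0.0881, with a 95% counting interval from 0.0428 to 0.164. The fitted log2 fold change was -3.47, and -4.71 without knockout replicate 1, and since the gene passed the filter through wild type alone, its call is a description. The chains of this pair were uneven, with H2-Ab1 per kilobase at 61.4 to 532 times the H2-Aa level in knockout, where the few H2-Aa counts make the ratio imprecise, and at 24.7 to 35.9 times in wild type.

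H2-Eb1, the beta chain of I-E, had 10, 18 and 16 counts in the knockout, against 39, 35 and 45 counts in wild type (log2 fold change -1.56 ± 0.34 SE, edgeR adjusted p = 0.0030). Knockout libraries alone would not have brought H2-Eb1 past the filter, so its call is a description too. H2-Ea-ps, the I-E alpha chain gene, annotated as a pseudogene in the reference used, had 1 count in all. Cd74, the invariant chain that guides class II molecules, was at 1.43, 1.65 and 1.95 CPM in the knockout, against 3.51, 3.83 and 3.14 CPM in wild type (log2 fold change -1.05 ± 0.25 SE, edgeR adjusted p = 0.0056). The genotypes did not overlap in H2-Eb1 or Cd74.

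The DM molecule, which exchanges peptides on class II, is made of the products of H2-DMa and H2-DMb1 or H2-DMb2. H2-DMb1 was at 6.76, 7.16 and 8.38 CPM in the knockout, against 21.7, 17.6 and 16.7 CPM in wild type (log2 fold change -1.33 ± 0.15 SE, edgeR adjusted p = 3.1e-05). H2-DMa overlapped, at 4.29, 4.94 and 4.82 CPM in the knockout, against 3.73, 4.14 and 4.46 CPM in wild type (edgeR adjusted p = 0.46). H2-DMb2, under the filter, had 10, 8 and 30 counts in the knockout, against 5, 0 and 2 in wild type, a direction opposite to that of its neighbour H2-DMb1, with the highest count in the knockout replicate 3, where macrophage markers were highest. H2-DMb1 and H2-DMb2 are 95.8% identical over 1081 bases, but just 4.71% of the 150-base stretches of H2-DMb1 are shared. H2-Eb2 and H2-Ob had at most 1 count in a library, and H2-Oa had none. H2-Ke6, a hydroxysteroid dehydrogenase gene named for its place in the MHC, had 0 to 3 counts.

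**Figure D3:**
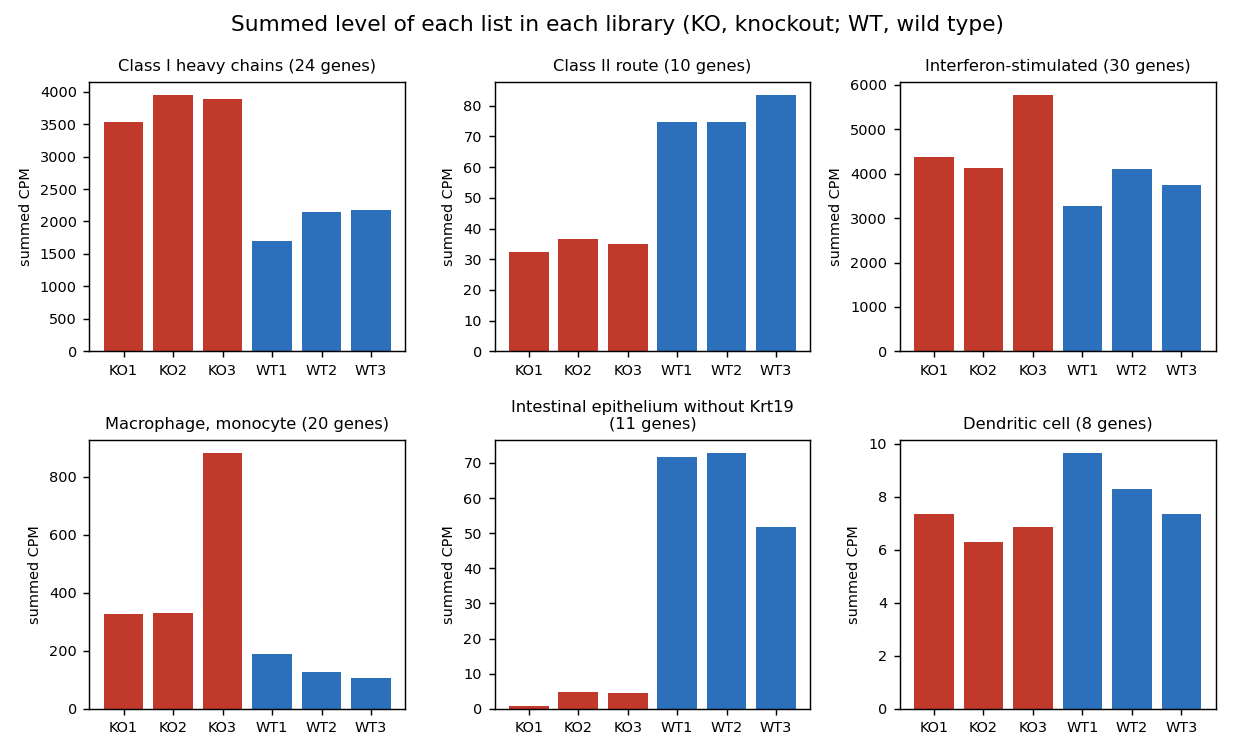
Summed CPM in each library (bars from 0) for class I heavy chains, class II route genes, interferon-stimulated genes and markers of other cells, knockout replicates left in red and wild-type replicates right in blue. The class II sum is lower in all 3 knockout libraries than in wild type, and macrophage markers are highest in KO3, at 883 CPM. The intestinal epithelium panel leaves out Krt19, which was not lower. The part of any cell type in the class II sum was not tested.

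The cell markers beside the class II values did not all move with them. Macrophage and monocyte markers were higher in knockout, while the class II sum was lower. Knockout replicate 3, with 883 CPM of these markers, had 35.0 CPM of class II genes, between the other knockout libraries. The class II route gene H2-DMb2 had its highest count, 30, in that library. Dendritic cell markers (8 genes) summed to 6.31 to 7.37 CPM in the knockout, against 7.37 to 9.67 CPM in wild type, with Flt3 at 0 in all but 1 wild-type library, Cd209a at 0 throughout, and most of the sum from Zbtb46, which passed in neither direction. B cell markers (5 genes) summed to 1.76 to 2.44 CPM in the knockout, against 1.07 to 2.35 CPM in wild type. T and NK cell markers (8 genes) summed to 0.275 to 0.511 CPM in the knockout, against 0.400 to 0.865 CPM in wild type. The markers listed for intestinal epithelium were lower in knockout together with the class II genes. This list does not identify the epithelium and does not show that intestinal cells were present. Epithelium can also express class II. The part of epithelium, macrophages or other cells in the class II difference was not tested. Endothelial markers (9 genes) summed to 33.8 to 41.6 CPM in the knockout, against 26.6 to 33.0 CPM in wild type. With 2 of 8 higher and 0 lower, their share higher was close to the 22.6% of all genes tested. Progenitor and fibroblast markers were lower for 5 of 7 and higher for 0, where 21.7% of all genes tested were lower.

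Other genes of these pathways were taken from lists, whose counts stand against 44.3% of all genes tested that passed, 22.6% higher and 21.7% lower. The share that passed, with higher and lower calls pooled, was below 44.3% for interferon signalling, interferon-stimulated genes and the proteasome core. The pooled share was also below 44.3% for the proteasome's regulatory particle and the class II promoter factors. Each of these lists except the promoter factors had a share higher above 22.6% and a share lower below 21.7%. For the promoter factors, both shares were below those of all genes. Of 14 interferon signalling genes 5 were higher and 1 lower, with a median log2 fold change of 0.24. The transcription factor gene Irf1 was at 50.7 ± 4.17 CPM in knockout, against 34.4 ± 1.06 CPM in wild type (SD, n = 3 each, log2 fold change 0.56, edgeR adjusted p = 0.00046). The interferon gamma receptor gene Ifngr1 rose by 0.65 on the log2 scale, and its partner Ifngr2 fell by 0.26. Irf8, a factor of myeloid cells, was at 0.770, 1.53 and 4.63 CPM in the knockout, against 0.622, 0.680 and 0.400 CPM in wild type.

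Of 30 interferon-stimulated genes 13 were higher and 0 lower, while 17 did not pass, and the median log2 fold change was 0.34. Irf7, Mx1 and Rsad2 were at 513 ± 62.9, 37.1 ± 11.8 and 81.4 ± 30.5 CPM in knockout, against 290.4 ± 49.9, 12.2 ± 2.88 and 32.9 ± 3.18 CPM in wild type, and Rtp4 had a log2 fold change of 0.41. Isg15 and Ifit1, among the best known of these genes, had log2 fold changes of 0.00 and 0.03 (edgeR adjusted p = 0.99 and 0.89, neither past the threshold). The summed level was 4364, 4122 and 5767 CPM in the knockout, against 3278, 4111 and 3740.0 CPM in wild type, so that knockout replicate 2 was level with wild-type replicate 2 and knockout replicate 3 stood highest.

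Among 14 genes of the constitutive proteasome core 5 were higher and 0 lower (median log2 fold change 0.18), led by Psma1 (1.23), Psmb5 (0.82), Psma5 (0.55) and Psmb7 (0.43). Of all genes tested, 22.6% were higher and 21.7% lower. Among 20 genes of the regulatory particle and other activators 6 were higher and 0 lower (median 0.15), led by Psmd4 (0.55), Psme3 (0.45), Psmd3 (0.42) and Psme4 (0.29). Endoplasmic reticulum chaperones and channels that serve class I and many other proteins went the other way, with 1 higher and 6 lower of 9 (median -0.42). Calr and Pdia3, which join tapasin in the loading complex, were at 1154 ± 61.7 and 725 ± 25.4 CPM in knockout, against 2040.4 ± 10.5 and 1452 ± 30.8 CPM in wild type (log2 fold changes -0.82 and -1.0, edgeR adjusted p = 4.7e-05 and 8.8e-06). Sec61b, of the protein channel, fell by 0.80 on the log2 scale. The one that rose was Tapbpl, a tapasin-like gene (0.66).

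Of 12 tested genes that serve the class II route or its vesicles, 4 were higher and 5 lower (median log2 fold change -0.09). The tetraspanin gene Cd9 (-1.01), the thiol reductase gene Ifi30 (-0.64) and the protease gene Ctsl (-0.57) fell, and the protease gene Ctsb rose (0.52). The protease gene Ctss had the largest change of the list (log2 fold change 1.92, edgeR adjusted p = 0.034). It was at 18.2, 18.3 and 54.8 CPM in the knockout, against 10.9, 6.43 and 6.74 CPM in wild type. Of 7 genes of the factors that assemble on class II promoters Rfxank was higher (0.67) and Nfyb lower (-0.37), and 5 did not pass. Among MHC-like genes outside the complex, 3 of 5 tested were higher and 1 lower. Cd1d1, which presents lipids to natural killer T cells, was at 77.1, 96.8 and 88.2 CPM in the knockout, against 24.2, 29.5 and 38.1 CPM in wild type (log2 fold change 1.51), and Hfe, a regulator of iron uptake, had a log2 fold change of 1.08, Mr1 of 0.23 and Procr of -0.54. Of the co-stimulation genes Cd80 (-0.96) and Icam1 (-0.39) fell, and Cd274, which encodes PD-L1, rose (0.82).

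The heavy chain genes lie among many others. Of the 47 genes 39 are on chromosome 17, between 33915899 and 37483552 in GRCm38, and 22 of these were tested, with 15 higher and 4 lower. Of 90 other genes tested in that interval, apart from the H2 pseudogenes, 23 were higher and 11 lower, that is 37.8%, against 44.3% of all genes tested, and their median log2 fold change was 0.08. The class II genes that fell, H2-DMb1, H2-Ab1, H2-Aa and H2-Eb1, and the class I supply genes that rose, Psmb9, Tap1, Psmb8 and Tap2, lie close together, the supply genes between H2-DMb1 and H2-Ab1.

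**Figure D4:**
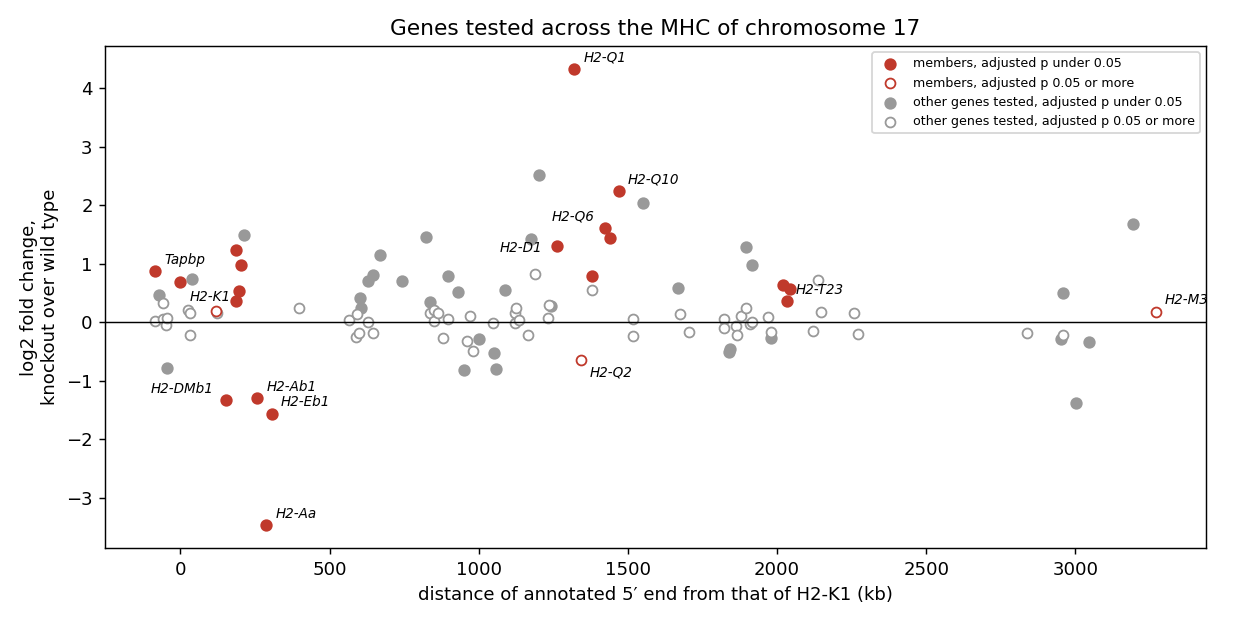
Log2 fold change, knockout over wild type, of 22 tested genes (red) and 90 other tested genes (grey) across the MHC of chromosome 17, by the distance of the gene's annotated 5′ end from that of H2-K1 in kb; filled points passed an adjusted p of 0.05. The 4 class II genes that fell lie on either side of Psmb9, Tap1, Psmb8 and Tap2, which were higher.

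Promoter windows are shown for 4 genes of the class I route that were higher and 2 class II genes that were lower, with known elements of MHC promoters. They run from 250 bases before to 50 after the transcript start, 5′ to 3′ on the gene's strand, from RefSeq on GRCm38.p6, which matched 40 of the 47 genes. Capitals mark motifs found on either strand, namely the interferon-stimulated response element core (GAAA, NN, then GAAA again), the STAT site TTCNNNGAA, the enhancer A kB site of class I genes (GGGG, ATT, then CCCC), the Y box core CCAAT, bound by NF-Y, and TGACGT, the core of the X2 box. The windows are chr2:122147437-122147736 on the plus strand for B2m, chr17:34000298-34000597 on the minus strand for H2-K1, chr17:35262844-35263143 on the plus strand for H2-D1, chr17:34187306-34187605 on the plus strand for Tap1, chr17:34287774-34288073 on the minus strand for H2-Aa and chr17:34305617-34305916 on the plus strand for H2-Eb1.
B2m: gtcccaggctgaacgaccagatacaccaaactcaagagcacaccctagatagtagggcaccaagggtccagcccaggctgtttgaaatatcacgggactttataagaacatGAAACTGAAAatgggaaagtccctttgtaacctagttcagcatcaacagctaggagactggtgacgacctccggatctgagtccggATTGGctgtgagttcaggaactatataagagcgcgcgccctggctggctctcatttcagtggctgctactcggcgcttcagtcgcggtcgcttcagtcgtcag
H2-K1: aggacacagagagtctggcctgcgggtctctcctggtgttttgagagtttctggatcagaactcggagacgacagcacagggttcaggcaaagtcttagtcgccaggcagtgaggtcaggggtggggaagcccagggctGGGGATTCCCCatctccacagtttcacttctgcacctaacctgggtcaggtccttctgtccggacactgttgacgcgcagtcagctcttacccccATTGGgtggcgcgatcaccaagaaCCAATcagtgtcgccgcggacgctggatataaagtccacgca
H2-D1: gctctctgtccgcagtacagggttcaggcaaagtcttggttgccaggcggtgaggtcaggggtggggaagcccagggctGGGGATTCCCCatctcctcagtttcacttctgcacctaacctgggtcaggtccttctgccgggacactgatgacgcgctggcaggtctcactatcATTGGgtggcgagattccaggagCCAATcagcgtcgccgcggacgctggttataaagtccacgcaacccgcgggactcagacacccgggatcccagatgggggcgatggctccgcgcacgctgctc
Tap1: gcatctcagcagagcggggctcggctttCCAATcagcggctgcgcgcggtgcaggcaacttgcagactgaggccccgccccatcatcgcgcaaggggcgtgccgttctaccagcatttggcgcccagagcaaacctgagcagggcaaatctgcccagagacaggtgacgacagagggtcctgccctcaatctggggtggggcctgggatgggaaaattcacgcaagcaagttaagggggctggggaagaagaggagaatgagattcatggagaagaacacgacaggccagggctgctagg
H2-Aa: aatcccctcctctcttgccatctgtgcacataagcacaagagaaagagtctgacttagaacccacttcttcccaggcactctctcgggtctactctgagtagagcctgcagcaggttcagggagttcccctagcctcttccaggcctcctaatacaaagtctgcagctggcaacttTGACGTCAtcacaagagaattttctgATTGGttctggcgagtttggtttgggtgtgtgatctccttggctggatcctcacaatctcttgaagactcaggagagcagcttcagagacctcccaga
H2-Eb1: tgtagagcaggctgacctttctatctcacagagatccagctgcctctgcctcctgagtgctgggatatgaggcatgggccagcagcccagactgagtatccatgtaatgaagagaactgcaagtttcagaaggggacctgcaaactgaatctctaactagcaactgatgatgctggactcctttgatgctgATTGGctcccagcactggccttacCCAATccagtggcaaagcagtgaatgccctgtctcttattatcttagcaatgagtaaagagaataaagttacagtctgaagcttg

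The windows of H2-K1 and H2-D1 were 90.4% identical over 228 aligned positions and held the same kB site, while the log2 fold changes of the genes were 0.68 and 1.30. The kB site occurred in 3 of 16 genes with a window among those higher in knockout, H2-K1, H2-D1 and H2-Q6, and in 0.0304% of all 32851 windows. The response element core occurred in 4 of the 16, B2m, H2-T22, H2-T23 and Psme1, and in 3.44% of all windows, and the STAT site in 1, Psmb8, against 8.30%. Among tested genes that did not pass, Erap1 also held the response element core and H2-M3 the STAT site. The Y box core was in H2-DMa, H2-Q2 and H2-M3, which did not pass either. The Y box core was in 11 of the 16 and in all 3 genes with a window that were lower, H2-Aa, H2-DMb1 and H2-Eb1, and in 37.4% of all windows. The X2 core was in 3 of the 16 and, as the palindrome TGACGTCA, which counts as a pair of overlapping matches, in H2-Aa, and in 7.51% of all windows. The Tap1 window shares 275 bases with that of Psmb9, which is read from the other strand. Just exact matches to these motifs were looked for, so a window without a mark can still hold a variant of the element. Paralogs are alike in these windows, so the counts are a description and no test.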

How the data were processed

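Libraries of total RNA without ribosomal RNA were read as pairs of 150 bases, per the labels' protocols. The deposited values are raw counts per Ensembl gene, and STAR and featureCounts with the builds mm10 and GRCm38 were used, per the submitters' processing notes. Their versions, the annotation, the strand setting and the rule for multi-mapping reads were not given in the sources used here, so counts of paralogs and of overlapping or antisense genes are uncertain.

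Symbols came from GENCODE release M21 (53706 of 53801 genes matched). The fit used edgeR 4.0.16 (R 4.3.3) on all genes kept by filterByExpr (minimum count 10, minimum total 15; 14816 genes), with TMM factors and the 2-sided quasi-likelihood F test (legacy, robust), genotype as the single term and Benjamini-Hochberg adjustment at 0.05. Each SE was derived as the log2 fold change without its sign, divided by the square root of its F statistic. For genes with few counts this SE is approximate. CPM are relative to the scaled totals of the genes kept. Replicates are called biological by the series. They were distinct libraries (chi-square per degree of freedom 9.30 to 23.9 within and 143 to 216 between genotypes). Same-numbered libraries did not deviate together (r from -0.143 to 0.012), so the numbers were not taken as pairs.

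All members were named. Those with a mean of at least 5 CPM or past the threshold are given with values, by library or as mean ± SD, and the rest by counts. Of each other list, up to 4 genes of smallest p past the threshold were named, except 1 that is not reported here. Isg15, Ifit1, Ifngr2, Krt19, Flt3, Cd209a, Zbtb46, Psme2b, Ctss and the pseudogenes fall outside this rule and were picked with their values known. Members and lists were chosen with earlier results of these data known. Sequence sharing was computed on GENCODE transcripts with exact 150-base stretches and with BLAST+ 2.17.0. Alternatives included RLE and upper-quartile factors, DESeq2 1.42.0 and limma-voom (limma 3.58.1).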

Additional observations from a re-analysis of the deposited data

How the results depend on the processing

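With RLE or upper-quartile factors, DESeq2, weighted limma-voom, the newer edgeR setting, all genes with a count kept, a floor of 1 CPM in 3 libraries, the library-name suffix as a covariate or protein-coding genes alone, the genes called higher numbered 19 to 21 and those called lower 5 or 6, against 20 and 5 as reported. With the replicate block they were 20 and 5, and 6129 of all genes were called against 6561. With each library left out in turn, 18 to 20 were higher, 5 lower, and 5276 to 6674 of all genes were called. None of the 29 MHC and antigen processing genes tested changed direction under any of these alternatives, and the calls among them that ended were those of Psmb8 in limma-voom and of Tap1 and H2-T23 without wild-type replicate 1. The cause was not tested. Without the low-count filter H2-DMb2 was also called higher (edgeR adjusted p = 0.002) and H2-M1 lower (0.032). Upper-quartile factors moved the median log2 fold change of all genes to -0.047. At this depth, genes with few counts are imprecise, as the interval of Ciita shows. The labels name no strain, and effects of alleles on counting were not tested.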
